A study of Homo sapiens with 12 samples.

Results

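The 39 genes of glycolysis and of the hypoxia response described here code for glucose and lactate transporters, glycolytic enzymes, their regulators, the oxygen sensing machinery and further targets of the hypoxia-inducible factor HIF. They were taken by name, and the choice was made with earlier results of these data known. Each was matched to the array's probe sets that carry its symbol alone, with older symbols accepted, as for ERO1L (now ERO1A). All 39 had enough signal to be tested, among 16648 genes tested in all. The cells were 293T, an embryonic kidney cell line of human origin with SV40 large T antigen, grown in standard DMEM with serum, and the question of the study was what changes when RBFOX2, an RNA-binding splicing regulator, is depleted. There were 3 knockdown groups, each with a different short hairpin RNA against RBFOX2 (shRNA1, shRNA2 and shRNA3), and a control group with a non-target hairpin (SHC016), with 3 arrays each. Every group, the control included, had been infected with a hairpin lentivirus and kept in 1 ug/mL puromycin for 10 days, starting 48 hours after infection, so no array shows untouched cells. All arrays come from this 1 line, and the labels do not state the oxygen level of the cultures.

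Glycolysis splits glucose into pyruvate and yields ATP without oxygen, and lactate dehydrogenase then turns pyruvate into lactate. HIF is a dimer of an oxygen-labile alpha subunit, such as that coded by HIF1A, and a stable ARNT subunit. With oxygen present the EGLN prolyl hydroxylases mark the alpha subunit for VHL and the proteasome, and without it HIF binds DNA at short cores and raises transcription of glucose transporters, glycolytic enzymes and genes of mitophagy, collagen modification and vessel growth.

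The DNA core that HIF is known to bind reads ACGTG or GCGTG, and upstream sequences of 4 of the members that rose with all 3 hairpins are printed with that of GAPDH, which was not called, to show how the core lies in both. Each is the 250 bases before the annotated start, from RefSeq on build GRCh38.p14, read 5′ to 3′ on the gene's strand, with every ACGTG or GCGTG on either strand in capitals. They lie upstream of P4HA1 at chr10:73096867-73097116 (minus strand), BNIP3 at chr10:131981924-131982173 (minus), ENO2 at chr12:6914330-6914579 (plus), EGLN1 at chr1:231422288-231422537 (minus) and GAPDH at chr12:6535014-6535263 (plus).
P4HA1: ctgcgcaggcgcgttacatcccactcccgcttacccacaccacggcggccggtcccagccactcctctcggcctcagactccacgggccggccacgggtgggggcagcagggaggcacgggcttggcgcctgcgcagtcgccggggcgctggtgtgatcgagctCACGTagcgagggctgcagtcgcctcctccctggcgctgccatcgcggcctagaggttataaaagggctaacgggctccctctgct
BNIP3: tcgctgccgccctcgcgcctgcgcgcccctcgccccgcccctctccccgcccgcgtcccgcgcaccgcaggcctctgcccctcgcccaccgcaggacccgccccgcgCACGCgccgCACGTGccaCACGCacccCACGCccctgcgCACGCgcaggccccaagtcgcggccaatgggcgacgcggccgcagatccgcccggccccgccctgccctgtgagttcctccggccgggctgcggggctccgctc
ENO2: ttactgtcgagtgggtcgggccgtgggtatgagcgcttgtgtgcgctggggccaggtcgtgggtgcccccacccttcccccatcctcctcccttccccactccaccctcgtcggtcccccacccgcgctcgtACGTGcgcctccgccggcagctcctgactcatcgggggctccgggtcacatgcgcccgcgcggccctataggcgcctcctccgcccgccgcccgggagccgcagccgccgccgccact
EGLN1: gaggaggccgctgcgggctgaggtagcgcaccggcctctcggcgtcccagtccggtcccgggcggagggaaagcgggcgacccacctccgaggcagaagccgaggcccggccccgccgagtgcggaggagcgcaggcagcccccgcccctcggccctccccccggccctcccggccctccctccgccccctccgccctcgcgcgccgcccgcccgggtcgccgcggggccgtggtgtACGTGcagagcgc
GAPDH: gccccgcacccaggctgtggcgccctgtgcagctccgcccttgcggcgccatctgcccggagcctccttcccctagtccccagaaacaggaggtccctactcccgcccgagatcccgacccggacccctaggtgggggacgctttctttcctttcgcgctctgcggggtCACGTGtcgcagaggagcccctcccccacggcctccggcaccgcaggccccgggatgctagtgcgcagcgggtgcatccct
A core begins 86 bases before the start of P4HA1, 118 before that of ENO2 and 13 before that of EGLN1. BNIP3 holds 6 overlapping or separate matches and GAPDH 2, which are the same palindromic CACGTG read on both strands. A promoter was found for 35 of the 39 members, and 23 of these (65.7%) held at least 1 core, against 43.1% of all 27305 promoters in the same table. Of the 10 matched members that rose with all 3 hairpins 8 did (80.0%), and of the other 25 members 15 did (60%). The members without a promoter entry, NDRG1, BNIP3L, SLC2A3 and VEGFA, all rose with all 3 hairpins, so the share for the risen members leaves them out. ACGTG alone lay in 7 of the 10 (70.0%), in 9 of the 25 (36%) and in 18.7% of all promoters. All 4 risen members printed here hold ACGTG, while PDK1, SLC2A1 and PFKFB4 do not, so the printed ones are no sample of the 10. PDK1 and SLC2A1, which rose with all 3, held no core in this window, and LDHA, with 5 matches, and PGK1, with 3, are among the members not called with every hairpin. These are matches of letters, not measured binding.

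RBFOX2 itself, read first to check the labels, was at 8.59, 8.54 and 8.51 (log2) under shRNA1, at 9.10, 9.11 and 9.16 under shRNA2 and at 8.82, 8.84 and 8.85 under shRNA3, against 9.59, 9.58 and 9.58 on the control arrays. Array medians lay between 7.24 and 7.27, and arrays correlated with each other at 0.991 to 0.995 across probe sets. All 9 listed markers of 293T cells were measured, with mean levels of 7.96 to 10.5. Of these, 0 were called with shRNA1, 1 higher and 1 lower with shRNA2, and 3 higher and 1 lower with shRNA3. Among all genes 5.99%, 5.92% and 12% were higher and 4.07%, 8.63% and 14.8% lower with shRNA1, shRNA2 and shRNA3, and nothing is read from counts this small. Of the markers of leukocytes, fibroblasts and hepatocytes that passed the filter on low values, 4 of 5, 3 of 5 and 4 of 4, none was called with any hairpin. The summed log2 level of the fibroblast markers was 23.2 to 23.4 with shRNA1, 23.0 to 23.6 with shRNA2 and 23.2 to 23.5 with shRNA3, against 23.3 to 23.6 in control. That of the 293T markers was above control with shRNA3 (83.63 to 84.34 against 82.89 to 83.47). That of the hepatocyte markers, all of them dim, was below control with shRNA1 (30.10 to 30.29 against 30.45 to 30.55). All other sums of these lists overlapped with control. In bulk RNA, fewer cells that express a gene and less RNA per cell cannot be told apart.

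With each hairpin the members moved mostly upward. Relative to control, 18 members were higher with shRNA1, where 5.99% of all genes were, 16 were higher with shRNA2, where 5.92% of all genes were, and 26 were higher with shRNA3, where 12% of all genes were. These are 46.2%, 41.0% and 66.7% of the members. Leaving out 1 array moved the counts to between 9 and 19 for shRNA1, 7 and 20 for shRNA2 and 18 and 27 for shRNA3. For shRNA1 the count was 9 without control 1 or shRNA1 replicate 2, and for shRNA2 it was 7 without control 1 and 8 without control 3 or shRNA2 replicate 2. Only HIF1A was called lower, with shRNA2 alone, where 8.63% of all genes were lower. No member was lower with shRNA1 or shRNA3, where 4.07% and 14.8% of all genes were. For the mean of the 3 hairpins 20 members were higher, where 10.3% of all genes were, and 0 lower, where 12.8% were. A call is an adjusted p below 0.05 in limma (Benjamini-Hochberg over all 16648 genes), and a gene's value is the mean log2 value of its kept exon and junction probe sets. The median log2 change of the 39 members was 0.12, 0.12 and 0.16 for shRNA1, shRNA2 and shRNA3 in turn, against -0.01, 0.00 and 0.02 for all genes.

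With all 3 hairpins 14 members rose, 35.9% of the members where 2.5% of all genes did, and 0 fell, where 2.17% of all genes did. The 3 comparisons use the same 3 control arrays, so they do not give independent counts. The members were chosen with earlier results of these data known, so their share is no independent test against that of all genes. The 14 were the transporters SLC2A1 and SLC2A3, the enzymes HK2 and ENO2, the kinases PFKFB4 and PDK1, the oxygen sensor EGLN1, and the further HIF targets BNIP3, BNIP3L, NDRG1, P4HA1, PLOD2, VEGFA and ANKRD37. Their mean rise over the hairpins lay between 1.16-fold and 1.60-fold. Another 5 members rose with 2 hairpins and 8 with 1, and 11 were called with none in either direction. For 15 members all 9 hairpin arrays lay above all 3 control arrays, which 5.5% of all genes did, and for 0 members they lay below, which 7.79% of all genes did.

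The count rests in part on single arrays. Each array is named here by its group and replicate number. Without control 1 the members that rose with all 3 hairpins became 6, and without control 3, shRNA1 replicate 2 or shRNA2 replicate 2 they became 8. The 6 kept in all 12 fits that leave out 1 array were SLC2A3, PDK1, ENO2, NDRG1, P4HA1 and VEGFA. Nothing in the labels says whether replicates came from separate cultures, and the p-values therefore cover only array-to-array spread, which may be technical.

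Settings other than left-out arrays ended the call with all 3 hairpins for 7 of the 14, while ENO2, HK2, NDRG1, P4HA1, PDK1, SLC2A3 and VEGFA kept it under all 11 tried. With only the 2 groups compared in the fit it was lost for PFKFB4 (largest adjusted p = 0.0518 by limma), BNIP3 (0.0767), BNIP3L (0.0822), EGLN1 (0.0557), ANKRD37 (0.115) and SLC2A1 (0.117). With the median of a gene's probe sets it was lost for BNIP3 (0.0823), PLOD2 (0.0617), BNIP3L (0.148) and SLC2A1 (0.158). With no filter on dim probe sets it was lost for PLOD2 (0.0514), EGLN1 (0.104) and SLC2A1 (0.0553), with junctions alone for BNIP3L (0.0627), EGLN1 (0.0568) and ANKRD37 (0.247), with exons alone for SLC2A1 (0.0609), and with a filter at the 60th percentile for ANKRD37 (0.127).

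**Figure D1:**
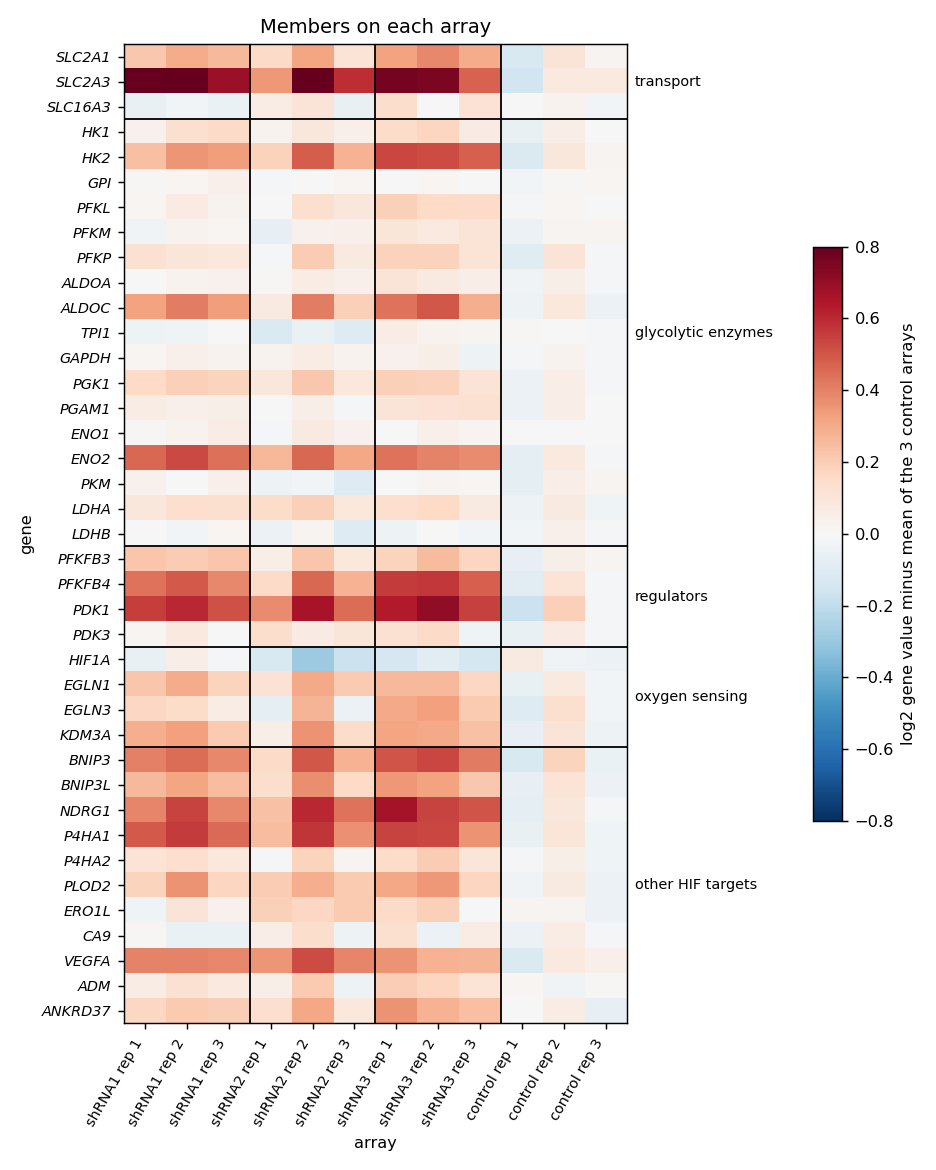
Gene values of the 39 members (rows, by role) on the 12 arrays (columns, knockdown arrays left of control), as log2 value minus the mean of the 3 control arrays, red above and blue below, with colours ending at 0.8 either way. Most rows among transport, regulators and other HIF targets are red on all 9 hairpin arrays, most glycolytic enzymes are pale, and HIF1A is blue with shRNA2 and shRNA3.

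Of the 3 transporter genes, both glucose transporters rose and the lactate exporter did not pass the test. SLC2A3 codes for a high-affinity glucose transporter (GLUT3). Its values were 8.37, 8.41 and 8.26 under shRNA1, 7.92, 8.44 and 8.17 under shRNA2 and 8.34, 8.33 and 8.05 under shRNA3, against 7.42, 7.65 and 7.65 in control. Every hairpin array lay above every control array, although shRNA2 replicate 1 stood well below the other shRNA2 arrays. It changed by 0.77, 0.60 and 0.66 on the log2 scale (SE 0.11; 3 arrays a group; limma adjusted p = 0.00114, 0.00371 and 0.00114), a mean of 1.60-fold, the largest among the 39 members. Its sequence is close to that of SLC2A14, so part of its signal could be that gene's. SLC2A1, the common basal glucose transporter (GLUT1), was at 9.95, 10.03 and 10.00 under shRNA1, 9.89, 10.05 and 9.85 under shRNA2 and 10.06, 10.12 and 10.04 under shRNA3, against 9.62, 9.84 and 9.76 in control. The groups did not overlap, but shRNA2 replicate 3 was barely above control replicate 2. Its changes were 0.26, 0.19 and 0.33 (SE 0.06; adjusted p = 0.0161, 0.0403 and 0.00166 by limma). The call with all 3 was lost without control 1 (largest adjusted p = 0.173), control 3 (0.0823), shRNA1 replicates 1, 2 or 3 (0.0514, 0.0781 and 0.0544), shRNA2 replicate 2 (0.178) or shRNA3 replicates 1 or 3 (0.0513 and 0.0510). SLC16A3, which exports lactate, changed by -0.05, 0.03 and 0.09 (SE 0.05; adjusted p = 0.587, 0.674 and 0.159).

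Of the 17 glycolytic enzyme genes, 4 were higher for shRNA1, 3 for shRNA2 and 9 for shRNA3, none fell, and 8 were called with none. With these hairpins 5.99%, 5.92% and 12% of all genes were higher and 4.07%, 8.63% and 14.8% lower. The median log2 change of the 17 was 0.04, 0.04 and 0.11 under shRNA1, shRNA2 and shRNA3. The 2 that rose with all 3 hairpins code for regulated or tissue-restricted forms. HK2, the inducible hexokinase that traps glucose in the cell, was at 9.30, 9.41 and 9.39 under shRNA1, 9.24, 9.55 and 9.34 under shRNA2 and 9.60, 9.58 and 9.54 under shRNA3, against 8.95, 9.15 and 9.08 in control. All hairpin arrays were above all control arrays, and the shRNA3 arrays stood highest as a group. The changes were 0.31, 0.32 and 0.51 (SE 0.07; limma adjusted p = 0.0128, 0.00859 and 0.000287), and the call with shRNA1 was lost without control 1 (0.0615) or shRNA1 replicate 2 (0.0648). ENO2, the neuronal enolase, was at 8.55, 8.62 and 8.54 under shRNA1, 8.36, 8.55 and 8.40 under shRNA2 and 8.53, 8.49 and 8.47 under shRNA3, against 8.02, 8.17 and 8.09 in control. No hairpin array came near the control range. Its changes were 0.48, 0.34 and 0.40 (SE 0.05; limma adjusted p = 0.000157, 0.0012 and 0.000242).

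Aldolase C, phosphoglycerate kinase 1 and lactate dehydrogenase A rose with 2 hairpins. ALDOC, the aldolase form known from brain, changed by 0.35, 0.23 and 0.41 (SE 0.07; limma adjusted p = 0.00906, 0.0512 and 0.00179), and with the replicate number as a block it was called with shRNA2 too (adjusted p = 0.0152). Its call with shRNA1 was lost without shRNA1 replicate 2 (0.0506). PGK1, which makes ATP in glycolysis, changed by 0.18, 0.13 and 0.16 (SE 0.04; limma adjusted p = 0.0195, 0.0549 and 0.0138; 0.0388 with shRNA2 under the block), and all 9 hairpin arrays were above the control arrays. Its calls were lost without control 1, control 3 or shRNA1 replicates 1 or 2 for shRNA1 (up to 0.0870), and without control 1 or shRNA3 replicate 1 for shRNA3 (up to 0.0620). LDHA, which reduces pyruvate to lactate, changed by 0.12, 0.14 and 0.12 (SE 0.04; limma adjusted p = 0.0839, 0.0345 and 0.0392). Its call with shRNA2 was lost without control 1, control 3 or shRNA2 replicates 1 or 2 (up to 0.135), and that with shRNA3 without control 1, control 3, any shRNA1 array or shRNA3 replicates 1 or 2 (up to 0.138). The calls for LDHA and that for PGK1 with shRNA1 were also lost with no filter on dim probe sets, and with the median of probe sets or junctions alone no call of either gene remained (largest adjusted p = 0.563 for PGK1 and 0.323 for LDHA). With only the 2 groups compared both LDHA calls were lost as well.

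Another 4 enzyme genes rose with shRNA3 alone: HK1, the basal hexokinase, by 0.13 (limma adjusted p = 0.0413), PFKL and PFKP, phosphofructokinase subunits, by 0.17 (0.00531) and 0.16 (0.0435), and PGAM1, phosphoglycerate mutase, by 0.11 (0.0259). The call for PFKL was kept in all 12 fits that leave out 1 array. That for HK1 was lost without control 1, control 3, shRNA1 replicate 2 or shRNA3 replicates 1 or 2 (up to 0.159). That for PGAM1 was lost without control 1, control 3 or any shRNA3 array (up to 0.108), and that for PFKP without control 1, control 3 or any shRNA1 or shRNA3 array (up to 0.178). With no filter, with the median of probe sets and with junctions alone the calls for HK1, PFKP and PGAM1 were each lost (largest adjusted p = 0.140, 0.0929 and 0.560 by limma), while PFKL kept its call under all 11 settings. The 8 enzyme genes with no call were GPI, PFKM, ALDOA, TPI1, GAPDH, ENO1, PKM and LDHB. Their changes lay between -0.09 and 0.09, and GAPDH, the usual reference enzyme, changed by 0.03, 0.04 and 0.02 (SE 0.03; limma adjusted p = 0.658, 0.475 and 0.737). GAPDH, PGK1, PGAM1, LDHA and BNIP3 have processed pseudogene copies, so their values may hold signal from, or be diluted by, those copies.

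Between hairpins, 0 members differed for shRNA2 minus shRNA1, where 1.19% of all genes were called either way, 1 for shRNA3 minus shRNA1, where 7.1% were, and 1 for shRNA3 minus shRNA2, where 3.56% were. Both were enzyme genes. In fits that leave out 1 array the counts ran from 0 to 1, 0 to 2 and 0 to 10 in turn, so the count for shRNA3 minus shRNA2 depends on single arrays. PFKL, the liver-type phosphofructokinase subunit, was at 9.42, 9.39 and 9.38 under shRNA3 and at 9.25, 9.29 and 9.26 under shRNA1, while shRNA2 gave 9.23, 9.36 and 9.32 and control 9.22, 9.24 and 9.22. The shRNA3 arrays were above all others, and the difference from shRNA1 was 0.13 (SE 0.04; limma adjusted p = 0.0457). The call was kept in 3 of the 12 fits that leave out 1 array, those without a shRNA2 array (up to 0.166 in the others), and was lost under 4 of 11 other settings, among them the replicate block (0.0582; up to 0.136). TPI1, triose phosphate isomerase, was at 10.61, 10.58 and 10.57 under shRNA3 and at 10.43, 10.50 and 10.44 under shRNA2, while shRNA1 gave 10.51, 10.51 and 10.55 and control 10.56, 10.56 and 10.53. The shRNA2 arrays were the lowest, and shRNA3 minus shRNA2 was 0.13 (SE 0.03; limma adjusted p = 0.0350). That call was kept only without control 1, shRNA1 replicate 3 or shRNA2 replicate 2 (up to 0.144 in the other 9 fits), and was lost under 6 of 11 other settings, among them the replicate block (0.0580; up to 0.184). Neither TPI1 contrast with control for these hairpins was called (-0.09 with shRNA2, adjusted p = 0.0652, and 0.04 with shRNA3, adjusted p = 0.367).

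Of the 4 kinase genes that regulate glycolysis, 3 were higher for shRNA1, 2 for shRNA2 and 3 for shRNA3. Of all genes 5.99%, 5.92% and 12% were. PDK1 inhibits pyruvate dehydrogenase and so keeps pyruvate out of the mitochondrial cycle. Its values were 9.69, 9.74 and 9.65 under shRNA1, 9.52, 9.80 and 9.59 under shRNA2 and 9.77, 9.85 and 9.68 under shRNA3, against 8.96, 9.33 and 9.12 in control. The lowest hairpin array stood above the highest control array in spite of a wide control range. The changes were 0.56, 0.50 and 0.63 (SE 0.08; limma adjusted p = 0.0015, 0.00238 and 0.000287), a mean of 1.47-fold. PFKFB4, which makes and breaks down the sugar bisphosphate that activates phosphofructokinase, was at 8.42, 8.48 and 8.37 under shRNA1, 8.14, 8.45 and 8.27 under shRNA2 and 8.55, 8.56 and 8.47 under shRNA3, against 7.90, 8.10 and 7.98 in control. The groups did not overlap, with shRNA2 replicate 1 just above control replicate 2. Its changes were 0.44, 0.30 and 0.53 (SE 0.07; limma adjusted p = 0.00196, 0.0113 and 0.00025), and the call with shRNA2 was lost without control 1 (0.0554). PFKFB3, the inducible relative of PFKFB4, changed by 0.22, 0.12 and 0.20 (SE 0.05; limma adjusted p = 0.0116, 0.101 and 0.0076), with all 9 hairpin arrays above control. On shRNA2 replicate 1, however, it was practically level with control replicate 2 (0.0461 and 0.0460 above the control mean). Its call with shRNA1 was lost without control 1 (0.0571). PDK3, another pyruvate dehydrogenase kinase, changed by 0.03, 0.10 and 0.08 (SE 0.05; limma adjusted p = 0.735, 0.189 and 0.219).

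**Figure D2:**
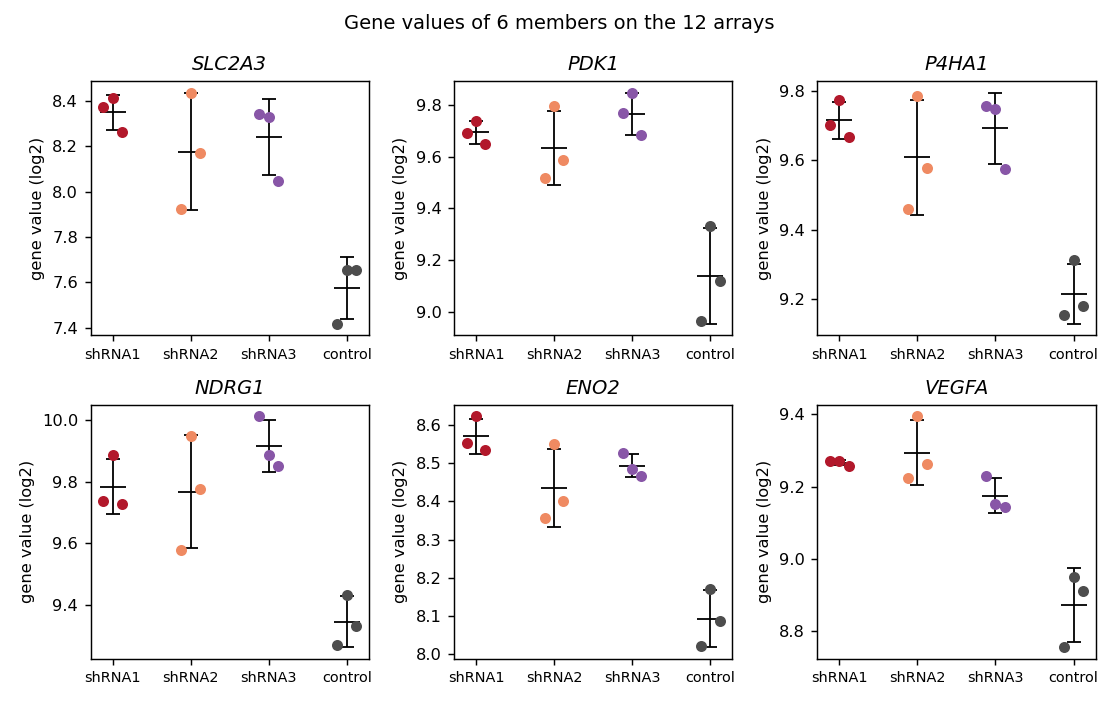
Gene values (log2) of the 6 members called with all 3 hairpins in every fit that leaves out 1 array, by group with control at the right: points are the 3 arrays, and lines the mean and SD. In each panel all 9 hairpin arrays lie above all 3 control arrays, for SLC2A3 from 7.92 upward against at most 7.65 in control.

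Of the 4 genes of oxygen sensing, HIF1A was the only member lower with any hairpin. Its RNA codes for the HIF-1 alpha subunit, which is known to be set largely by protein breakdown, and protein was not measured here. It was at 10.01, 10.12 and 10.05 under shRNA1, 9.95, 9.78 and 9.89 under shRNA2 and 9.93, 9.98 and 9.92 under shRNA3, against 10.14, 10.04 and 10.02 in control. The shRNA2 and shRNA3 arrays were all below the control arrays, while the shRNA1 arrays overlapped with them. The changes were -0.01, -0.19 and -0.12 (SE 0.05; limma adjusted p = 0.943, 0.0156 and 0.0698), and the call with shRNA2 was lost without control 1 or shRNA2 replicate 2 (up to 0.0727), and with no filter, the median of probe sets, junctions alone or only the 2 groups compared (up to 0.161). EGLN1, the main prolyl hydroxylase of HIF alpha and itself a HIF target, was at 10.19, 10.26 and 10.15 under shRNA1, 10.08, 10.27 and 10.18 under shRNA2 and 10.22, 10.23 and 10.13 under shRNA3, against 9.91, 10.05 and 9.95 in control. The groups were separate by a narrow margin at shRNA2 replicate 1. The changes were 0.23, 0.21 and 0.23 (SE 0.05; limma adjusted p = 0.0133, 0.0156 and 0.00645), and the call with all 3 was lost without control 1 (0.0698), control 3 (0.0573), shRNA1 replicate 2 (0.0766) or shRNA2 replicate 2 (0.0745).

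KDM3A, a histone demethylase that depends on oxygen, changed by 0.28, 0.18 and 0.28 (SE 0.07; limma adjusted p = 0.0196, 0.0767 and 0.00772), and with the replicate block it was called with shRNA2 too (adjusted p = 0.0342). Its call with shRNA1 was lost without control 1, control 3 or shRNA1 replicates 1 or 2 (up to 0.0927), and with the median of probe sets (0.0733). EGLN3, another HIF prolyl hydroxylase, changed by 0.12, 0.05 and 0.28 (SE 0.08) and was called with shRNA3 (limma adjusted p = 0.0191), a call lost without control 1, control 3 or shRNA3 replicates 1 or 2 (up to 0.0837).

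Among the 11 other HIF targets 7 were higher for shRNA1, 8 for shRNA2 and 9 for shRNA3, and none fell. With these hairpins 5.99%, 5.92% and 12% of all genes were higher and 4.07%, 8.63% and 14.8% lower. The median log2 change of the 11 was 0.24, 0.23 and 0.29 under shRNA1, shRNA2 and shRNA3, against 0.04, 0.04 and 0.11 for the glycolytic enzymes. No test of that difference between the lists was made. The lists also differ in signal, with mean levels of 7.61 to 10.19 for these targets and 8.40 to 11.49 for the enzymes. Whether signal level bears on the size of a change was not tested. BNIP3 and BNIP3L are related outer membrane proteins of mitochondria that mark them for mitophagy. BNIP3 was at 10.29, 10.34 and 10.27 under shRNA1, 10.04, 10.38 and 10.17 under shRNA2 and 10.40, 10.43 and 10.30 under shRNA3, against 9.77, 10.07 and 9.84 in control. It is the 1 gene among the 14 whose groups overlap, since shRNA2 replicate 1 was below control replicate 2. The changes were 0.41, 0.31 and 0.49 (SE 0.08; limma adjusted p = 0.00666, 0.0201 and 0.00115), and the call with shRNA2 was lost without control 1 (0.0914), control 3 (0.0755) or shRNA2 replicate 2 (0.0943). BNIP3L was at 10.22, 10.27 and 10.20 under shRNA1, 10.10, 10.33 and 10.12 under shRNA2 and 10.30, 10.28 and 10.17 under shRNA3, against 9.89, 10.07 and 9.91 in control. Its hairpin arrays were all above the control arrays, 2 of the shRNA2 arrays only just. The changes were 0.27, 0.23 and 0.29 (SE 0.06; limma adjusted p = 0.0143, 0.026 and 0.00445), and the call with all 3 was lost without control 1 (0.104), control 3 (0.0942), shRNA1 replicate 2 (0.0714) or shRNA2 replicate 2 (0.115).

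NDRG1, a cytosolic protein induced by many stresses, was at 9.74, 9.89 and 9.73 under shRNA1, 9.58, 9.95 and 9.78 under shRNA2 and 10.01, 9.89 and 9.85 under shRNA3, against 9.27, 9.43 and 9.33 in control. All hairpin arrays were clear of the control range. Its changes were 0.44, 0.42 and 0.57 (SE 0.08; limma adjusted p = 0.00406, 0.00404 and 0.00036). VEGFA, the growth factor of blood vessels, was at 9.27, 9.27 and 9.26 under shRNA1, 9.22, 9.39 and 9.26 under shRNA2 and 9.23, 9.15 and 9.14 under shRNA3, against 8.76, 8.95 and 8.91 in control. The groups did not overlap, and the shRNA3 arrays included the lowest hairpin values. Its changes were 0.39, 0.42 and 0.30 (SE 0.05; limma adjusted p = 0.000735, 0.000391 and 0.00153), the smallest with shRNA3. ANKRD37, a small ankyrin repeat protein, was at 8.18, 8.23 and 8.21 under shRNA1, 8.15, 8.33 and 8.10 under shRNA2 and 8.38, 8.29 and 8.26 under shRNA3, against 8.02, 8.08 and 7.95 in control. The hairpin arrays lay just above the control arrays. The changes were 0.19, 0.18 and 0.29 (SE 0.05; limma adjusted p = 0.0403, 0.0422 and 0.00214), and 7 arrays end the call with all 3 when left out: control 1 (0.104), control 3 (0.155), shRNA1 replicates 1, 2 and 3 (0.0887, 0.137 and 0.0883), shRNA2 replicate 2 (0.175) and shRNA3 replicate 2 (0.0533).

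Both collagen-modifying genes that rose with all 3 hairpins code for enzymes that use oxygen. P4HA1, the catalytic subunit of collagen prolyl hydroxylase, was at 9.70, 9.77 and 9.67 under shRNA1, 9.46, 9.79 and 9.58 under shRNA2 and 9.76, 9.75 and 9.57 under shRNA3, against 9.15, 9.31 and 9.18 in control. No hairpin array overlapped with control. Its changes were 0.50, 0.39 and 0.48 (SE 0.07; limma adjusted p = 0.00136, 0.00408 and 0.000722). PLOD2, the lysyl hydroxylase that prepares collagen for crosslinks, was at 9.88, 10.06 and 9.87 under shRNA1, 9.91, 10.00 and 9.92 under shRNA2 and 10.02, 10.05 and 9.88 under shRNA3, against 9.68, 9.77 and 9.66 in control. All 9 hairpin arrays were above control. The changes were 0.24, 0.24 and 0.28 (SE 0.06; limma adjusted p = 0.02, 0.0148 and 0.00385), and the call with all 3 was lost without control 1 (0.0743), control 3 (0.0743), shRNA1 replicate 2 (0.103) or shRNA2 replicate 2 (0.0678).

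The other 4 HIF targets were called with at most 1 hairpin. P4HA2, a second collagen prolyl hydroxylase subunit, rose by 0.15 (limma adjusted p = 0.0332) and ADM, the vasodilator peptide adrenomedullin, by 0.16 (0.036), both with shRNA3. ERO1L, which drives disulfide formation in the endoplasmic reticulum, rose by 0.19 with shRNA2 (0.0213). The call for P4HA2 was lost without control 1, control 3 or shRNA3 replicates 1 or 2 (up to 0.112), that for ADM without any control array or shRNA3 replicates 1 or 2 (up to 0.130), and that for ERO1L without control 1, control 3 or shRNA2 replicates 2 or 3 (up to 0.0859). All 3 calls were lost with the median of probe sets, that for ERO1L also with junctions alone, and that for ADM also with no filter, quantile normalization or junctions alone (largest adjusted p = 0.183 for P4HA2, 0.798 for ADM and 0.158 for ERO1L). CA9, a cell surface carbonic anhydrase that is a classical marker of hypoxia, changed by -0.03, 0.05 and 0.05 (SE 0.05; limma adjusted p = 0.749, 0.547 and 0.502). Its mean level of 7.61 was the lowest of the 39 members, and 17 of its 28 probe sets were kept. That level lies within the range of the hepatocyte markers (7.38 to 7.75), so the lack of a call says little about CA9. ADM, at 7.76, was nearly as dim.

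In all, 10 pairs of related genes were set side by side. As a mean over the 3 hairpins, HK2 changed by 0.38 ± 0.05 and HK1 by 0.10 ± 0.04 (log2, SE of the fit). ENO2 changed by 0.41 ± 0.04 and ENO1 by 0.03 ± 0.03, and ALDOC by 0.33 ± 0.06 and ALDOA by 0.04 ± 0.03. In these 3 steps the more widely expressed form (HK1, ENO1, ALDOA) was the one called with at most 1 hairpin. Outside the enzymes, PDK1 changed by 0.56 ± 0.07 and PDK3 by 0.07 ± 0.04, and P4HA1 by 0.46 ± 0.06 and P4HA2 by 0.11 ± 0.04. BNIP3 (0.40 ± 0.07) and BNIP3L (0.26 ± 0.05), and SLC2A3 (0.68 ± 0.09) and SLC2A1 (0.26 ± 0.05), rose with all 3 hairpins in both members. PFKFB4 changed by 0.42 ± 0.06 and PFKFB3 by 0.18 ± 0.04, LDHA by 0.13 ± 0.03 and LDHB by -0.02 ± 0.03, and EGLN1 by 0.22 ± 0.04 and EGLN3 by 0.15 ± 0.06, where the errors of the last pair overlap. The differences within pairs were not tested. P4HA1, BNIP3 and EGLN1 had a higher mean level than their partners. In every other pair the gene that changed more had the lower level, as ENO2 (8.40) beside ENO1 (10.95) and ALDOC (9.23) beside ALDOA (10.08). Whether level bears on these differences was not tested.

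**Figure D3:**
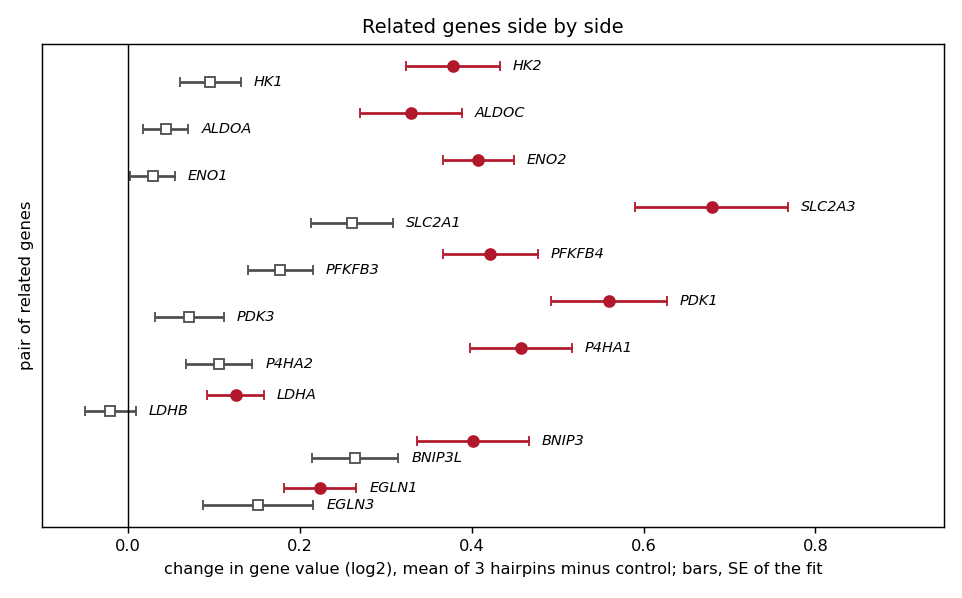
Change in gene value (log2, mean of the 3 hairpins minus control; bars, SE of the fit) for 10 pairs of related genes, the filled circle for one and the open square for its partner. HK2 (0.38), ENO2 (0.41), ALDOC (0.33), PDK1 (0.56) and P4HA1 (0.46) lie well to the right of HK1 (0.10), ENO1 (0.03), ALDOA (0.04), PDK3 (0.07) and P4HA2 (0.11).

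By estimated change alone, the order of the hairpins differed between the members and RBFOX2. The change was highest with shRNA3 in 22 of 39 members and lowest with shRNA2 in 28, and among the 14 that rose with all 3 hairpins in 9 and 12. Only PFKL and TPI1 were called between hairpins, and neither is among the 14. The median change of all genes was also highest with shRNA3 (-0.01, 0.00 and 0.02 for shRNA1, shRNA2 and shRNA3). The share of all genes with the members' order was not computed, so this order is not read as a result. RBFOX2 fell by 1.04 with shRNA1, by 0.46 with shRNA2 and by 0.74 with shRNA3 (SE 0.03), so the weakest knockdown and the lowest changes in most members came with the same hairpin, while the strongest knockdown, with shRNA1, gave the highest change in 4 of the 14. With 3 hairpins no relation between the knockdown and the members' change was tested.

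The 14 members also moved together between replicates of 1 group. All 14 were highest on replicate 2 of shRNA2 and on replicate 2 of control, and 13 on replicate 2 of shRNA1, whereas 36.4%, 37.5% and 33.5% of all genes were. All 14 were lowest on replicate 3 of shRNA3, as 38.0% of all genes were, and 12 were lowest on replicate 1 of control, as 36.8% of all genes were. Most of the 39 members did the same. Highest on replicate 2 of shRNA2, control and shRNA1 were 34, 33 and 26 of the 39. Lowest on replicate 3 of shRNA3 were 31, and on replicate 1 of control 30. The median of the 14 relative to the control mean was 0.40, 0.42 and 0.38 on the shRNA1 arrays, 0.19, 0.47 and 0.28 on the shRNA2 arrays and 0.47, 0.46 and 0.37 on the shRNA3 arrays, against -0.08, 0.09 and -0.02 on the control arrays. Their median range between replicates was 0.10 with shRNA1, 0.25 with shRNA2 and 0.12 with shRNA3, against 0.19 in control. What sets replicates of 1 group apart was not tested, and the labels give no batch.

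**Figure D4:**
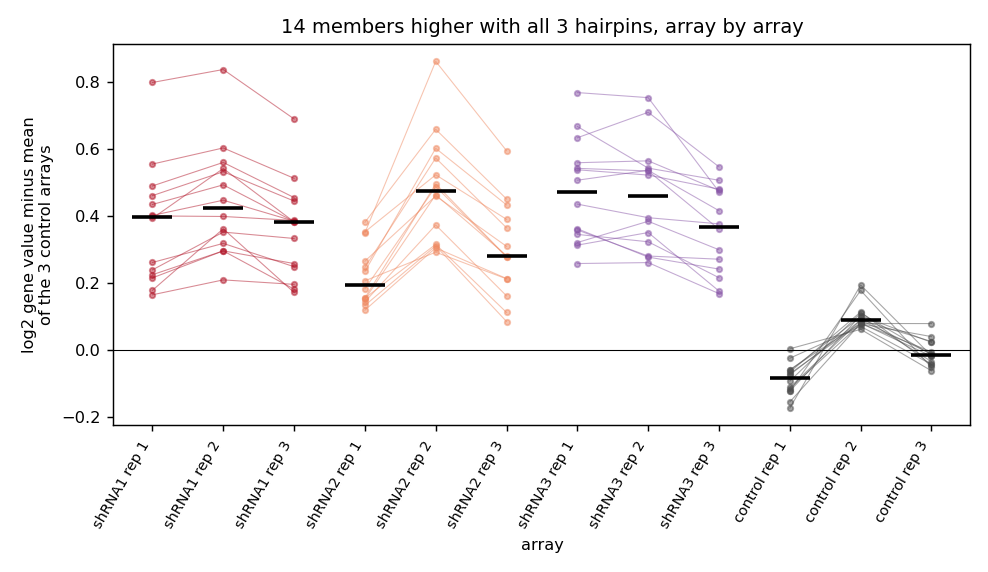
The 14 members that rose with all 3 hairpins on each array, as log2 gene value minus the mean of the 3 control arrays: thin lines join the replicates of 1 group for each gene, and thick dashes mark the median. The lines run in parallel within shRNA2, with medians of 0.19, 0.47 and 0.28, and within control, with medians of -0.08, 0.09 and -0.02.

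The members' single exon and junction probe sets were tested as well. The 39 genes had 1860 probe sets, of which 1505 were kept. Of those kept 210 (14%) were higher with shRNA1, 181 (12%) with shRNA2 and 345 (22.9%) with shRNA3, where 1.26%, 2.34% and 2.55% of all 529695 kept probe sets were. Lower were 0, 18 and 3 member probe sets, where 0.455%, 2.11% and 3.25% of all were. In 973 of the 1505 the change was positive with all 3 hairpins, and in 130 negative. The 3 comparisons share the control arrays, and the share over all kept probe sets was not computed, so nothing is read from these counts. For HK2, 8, 10 and 33 of 41 probe sets were higher for shRNA1, shRNA2 and shRNA3 in turn, and for NDRG1 42, 44 and 56 of 81 were. For PDK1 the counts were 26, 21 and 30 of 39, for P4HA1 20, 12 and 29 of 39 and for VEGFA 19, 20 and 15 of 40. For HIF1A 0, 8 and 1 of 39 were lower. Other genes called as a whole had few or no called probe sets: for ANKRD37 1, 0 and 3 of 15 were higher, and with shRNA3, where each gene was called, 0 of 68 were for PFKP, 0 of 18 for ADM and 0 of 21 for EGLN3. Probe sets of a gene share its RNA and are no replicates.

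The splicing index subtracts from the log2 value of a probe set the mean, on that array, of the remaining kept probe sets of the gene, and it showed few exons or junctions of the members that moved apart from their gene. Called (adjusted p below 0.05 by limma and at least 1.5-fold) were 10 of 1505 with shRNA1, 9 with shRNA2 and 10 with shRNA3, which is 0.664%, 0.598% and 0.664%, where 0.129%, 0.22% and 0.195% of all 417377 probe sets were. Under a block for replicate number the counts were 10, 6 and 7, and with shRNA2 and control alone in a blocked fit 0 were called with shRNA2. Leaving out 1 array gave 3 to 15 with shRNA1 (3 without shRNA1 replicate 2, 15 without shRNA2 replicate 1), 0 to 14 with shRNA2 (0 without shRNA2 replicate 3, 14 without shRNA2 replicate 1) and 2 to 11 with shRNA3 (2 without control 1 or shRNA3 replicates 1 or 2). With no filter on dim probe sets the counts were 4, 0 and 2. The calls made with the filter were 18 probe sets in 12 genes, 11 for exons and 7 for junctions. The index fell in 11 and rose in 7. Of the 11 falls 9 lay in genes that rose with all 3 hairpins.

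In each of these 9 the probe set's own level did not pass the test while the gene rose. In SLC2A3 the exon probe set PSR12015558.hg.1 was at 11.46, 11.49 and 11.51 under shRNA1, 11.58, 11.60 and 11.50 under shRNA2 and 11.56, 11.58 and 11.45 under shRNA3, against 11.51, 11.56 and 11.54 in control. All 12 arrays lie between 11.45 and 11.60 with the groups overlapping, and its index changed by -0.86, -0.60 and -0.71 (SE 0.12; limma adjusted p = 0.0104, 0.0379 and 0.0236). The exon PSR12015571.hg.1 of the same gene, near the filter's limit at 6.57 in control, changed by -0.76, -0.72 and -0.58 in its index. In PDK1 the exon PSR02015345.hg.1 changed by -0.79, -0.59 and -0.66 (SE 0.08; limma adjusted p = 0.00175, 0.0170 and 0.00754), with level changes of -0.22, -0.08 and -0.01, none called. The PDK1 exons PSR02015372.hg.1 and PSR02015349.hg.1 changed by -0.68, -0.42 and -0.67 and by -0.70, -0.57 and -0.50. The NDRG1 exons PSR08021680.hg.1 and PSR08021681.hg.1 changed by -0.63, -0.53 and -0.67 and by -0.55, -0.58 and -0.67, and the PLOD2 exon PSR03033645.hg.1 by -0.61, -0.47 and -0.71, called with shRNA3.

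Of the 7 rises of the index 3 lay in probe sets with a control level below the limit of the filter. In PFKFB4 the exon PSR03024007.hg.1 rose with all 3 hairpins by 1.00, 0.80 and 0.69 (SE 0.13; limma adjusted p = 0.00719, 0.0240 and 0.0354), at a control level of 6.44, where the filter asks for a mean of 6.53 over all arrays. The PDK1 junction JUC02008189.hg.1 changed by 1.02, 1.28 and 0.48 and the SLC2A3 junction JUC12008574.hg.1 by 0.78, 0.72 and 0.76, at control levels of 6.42 and 6.39. Of the fits that leave out 1 array, 1 of 12 kept their calls with shRNA2, and 2 of 12 kept that of the SLC2A3 junction with shRNA3. In VEGFA the exon PSR06007304.hg.1 was at 9.08, 9.10 and 9.05 under shRNA1, 9.49, 9.15 and 9.37 under shRNA2 and 8.78, 8.53 and 8.27 under shRNA3, against 7.84, 8.18 and 8.03 in control. All hairpin arrays were above control, those of shRNA3 least. Its index changed by 0.68, 0.92 and 0.21 (SE 0.13; limma adjusted p = 0.0508, 0.0160 and 0.457). The difference between hairpins in that index was not called (-0.71 for shRNA3 minus shRNA2, adjusted p = 0.0912).

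Among probe sets chosen after their values were seen, the junction JUC15013454.hg.1 of PKM, the gene of pyruvate kinase whose alternative exons give the M1 and M2 forms, stood out in a gene that was not called. Its level was 9.84, 9.79 and 9.94 under shRNA1, 9.35, 9.17 and 9.18 under shRNA2 and 9.58, 9.49 and 9.58 under shRNA3, against 9.13, 9.25 and 9.12 in control. The shRNA1 and shRNA3 arrays were all above control and the shRNA2 arrays overlapped with it. Its index changed by 0.68, 0.12 and 0.38 (SE 0.07; limma adjusted p = 0.000833, 0.335 and 0.0290), the last under 1.5-fold, and the call with shRNA1 was kept in all 12 fits that leave out 1 array. For shRNA2 minus shRNA1 the index differed by -0.55 (limma adjusted p = 0.0154), which is also under 1.5-fold. Which exons it joins was not determined here.

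**Figure D5:**
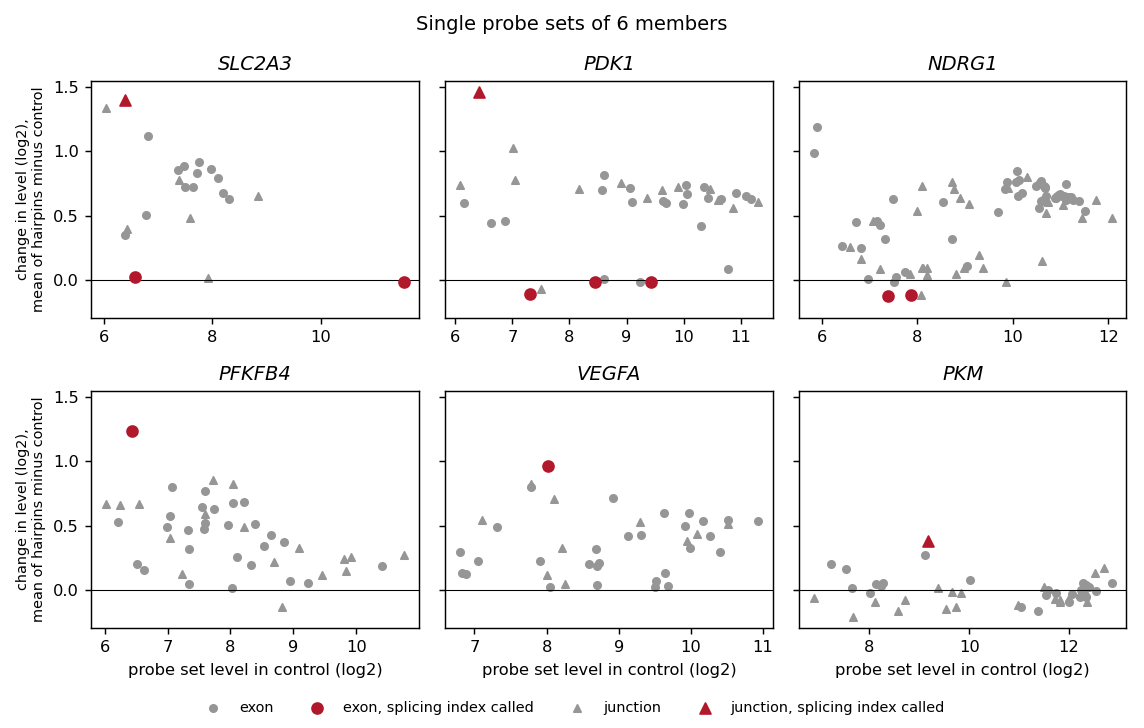
Single kept probe sets of 6 members, exons as circles and junctions as triangles, by control level (log2, horizontal) and change in level (log2, mean of hairpins minus control, vertical), with those called by splicing index in red. In SLC2A3, PDK1 and NDRG1 most points lie above 0 and the red exons near 0, with 1 red junction at the top in SLC2A3 and in PDK1, and in PKM most points lie near 0 with the red junction above them.

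Calls by splicing index were less firm than those of whole genes. In fits that leave out 1 array, the index of PSR12015558.hg.1 was called in 9, 4 and 7 of 12 with shRNA1, shRNA2 and shRNA3, that of PSR02015345.hg.1 in 12, 8 and 12, and that of PSR03024007.hg.1 in 12, 9 and 6. With shRNA2 all 3 lost their call with no filter and with only shRNA2 and control in the fit, with or without the block (largest adjusted p = 0.129 for each), and PSR12015558.hg.1 lost it with the block in the fit of all groups too. With shRNA3 no filter ended the call of PSR12015558.hg.1 (0.0717), only 2 groups that of PSR02015345.hg.1 (0.0563), and either setting that of PSR03024007.hg.1 (up to 0.0890).

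Other genes of the HIF response were read from lists chosen with earlier results of these arrays known. Because of that choice, the counts for these lists are no independent result. Of 30 further HIF targets 29 were measured, and 14, 12 and 17 were higher with shRNA1, shRNA2 and shRNA3, where 5.99%, 5.92% and 12% of all genes were. Lower were 1, 0 and 2, where 4.07%, 8.63% and 14.8% of all genes were. With all 3 hairpins 10 of the 29 rose, where 2.5% of all genes did. The 4 named next were picked by the size of their mean change over these hairpins, so their calls are no separate result. HILPDA, a lipid droplet protein, changed by 0.46, 0.32 and 0.45 (SE 0.08; limma adjusted p = 0.00282, 0.0155 and 0.00145), a call lost with shRNA2 without control 1 or shRNA2 replicate 2 (up to 0.0668), and with the median of probe sets or only the 2 groups compared (up to 0.0878). STC2, a secreted glycoprotein, changed by 0.42, 0.46 and 0.37 (SE 0.06; limma adjusted p = 0.00159, 0.00073 and 0.0014), DDIT4, an inhibitor of mTORC1, by 0.74, 0.68 and 0.83, and BHLHE40, a transcriptional repressor, by 0.72, 0.69 and 0.79. These 3 were called in every fit that leaves out 1 array.

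Components of the HIF machinery were called in both directions. Of 14 components 12 were measured, and with shRNA1 1 was higher (ARNT2) and 1 lower (EPAS1), with shRNA2 1 was lower (EGLN2), and with shRNA3 2 were higher (ARNT2 and EPAS1) and 5 lower (EGLN2, CREBBP, CUL2, TCEB1 and TCEB2). Of all genes 5.99%, 5.92% and 12% were higher and 4.07%, 8.63% and 14.8% lower with these hairpins, and nothing is read from counts this small. ARNT2, a partner subunit related to ARNT, was at 8.70, 8.75 and 8.70 under shRNA1, 8.46, 8.55 and 8.49 under shRNA2 and 8.64, 8.69 and 8.61 under shRNA3, against 8.30, 8.46 and 8.41 in control. The shRNA1 and shRNA3 arrays were clear of control, and the changes were 0.33, 0.11 and 0.26 (SE 0.04; limma adjusted p = 0.00069, 0.101 and 0.00117). EPAS1, which codes for the HIF-2 alpha subunit, changed by -0.14, 0.08 and 0.12 (SE 0.04; limma adjusted p = 0.0455, 0.224 and 0.0476), and its calls were lost without any control array, any shRNA1 array or shRNA3 replicate 1, and with shRNA3 also without shRNA3 replicate 2 (up to 0.168). EGLN2, the third HIF prolyl hydroxylase gene, changed by -0.12, -0.14 and -0.14 (SE 0.04; limma adjusted p = 0.0631, 0.0333 and 0.0182). Its calls were lost without control 1, control 3, shRNA2 replicates 2 or 3 or shRNA3 replicate 1 (up to 0.137). The EGLN2 calls were also lost with the median of probe sets or exons alone (up to 0.748), and that with shRNA2 with no filter or only the 2 groups compared. The EPAS1 calls were lost under 4 of 11 other settings with shRNA1 and 7 of 11 with shRNA3 (up to 0.298).

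Among the components lower with shRNA3, the coactivator CREBBP changed by -0.19 (limma adjusted p = 0.00713) and CUL2, the scaffold of the VHL ligase, by -0.18 (0.00661), both in every fit that leaves out 1 array. TCEB1 and TCEB2, the elongins of that ligase (now ELOC and ELOB), changed by -0.17 (0.0379) and -0.12 (0.0456). Those calls were lost without control 1 or any shRNA3 array, and for TCEB2 also without control 3 or shRNA1 replicates 1 or 2 (up to 0.175). The call for CREBBP was also lost with the median of probe sets (0.0858), that for TCEB1 under 4 of 11 other settings (up to 0.250) and that for TCEB2 under 6 of 11. With the median of probe sets the change of TCEB2 turned positive (0.05) and was not called. ARNT, HIF3A, VHL, HIF1AN and SIAH2 were called with no hairpin, with changes between -0.10 and 0.10.

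A list of 11 genes held subunits of the mitochondrial pyruvate carrier and of pyruvate dehydrogenase with kinases and phosphatases of that enzyme. Of these 1, 1 and 2 were higher with shRNA1, shRNA2 and shRNA3, where 5.99%, 5.92% and 12% of all genes were, and 1, 0 and 6 were lower, where 4.07%, 8.63% and 14.8% of all genes were. PDK4, a further pyruvate dehydrogenase kinase, rose with all 3 by 0.14, 0.30 and 0.21 (SE 0.04; limma adjusted p = 0.0355, 0.000391 and 0.00163), with shRNA1 only while all control arrays and shRNA1 replicates 2 and 3 were in the fit (up to 0.169 without 1 of them). MPC1, a subunit of the mitochondrial pyruvate carrier, changed by -0.20, -0.14 and -0.20 (SE 0.05; limma adjusted p = 0.0277, 0.079 and 0.0129), calls lost without control 1, control 3, shRNA1 replicates 1 or 2 or shRNA3 replicate 1 (up to 0.112). DLAT and DLD, subunits of pyruvate dehydrogenase, fell with shRNA3 by 0.15 (0.0258) and 0.16 (0.0193), calls lost without control 1 or shRNA3 replicate 3, and for DLAT also without control 3 or shRNA3 replicate 1 (up to 0.0954). Other settings ended the calls of PDK4 with shRNA1 (4 of 11 settings, up to 0.397) and with shRNA3 (1 of 11, 0.0599), of MPC1 with shRNA1 (2 of 11, up to 0.238) and with shRNA3 (1 of 11, 0.0699), and of DLAT (3 of 11, up to 0.214) and DLD (1 of 11, 0.0975).

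Of 18 other isoforms and relatives of the glycolytic genes 14 were measured, and 0, 0 and 2 were higher and 1, 2 and 1 lower with shRNA1, shRNA2 and shRNA3. Of all genes 12% were higher with shRNA3, and 4.07%, 8.63% and 14.8% were lower with the 3 hairpins, so nothing is read from these counts. TIGAR, which lowers the activator of phosphofructokinase that the PFKFB kinases make, fell with all 3 by 0.19, 0.26 and 0.22 (SE 0.05; limma adjusted p = 0.0363, 0.00683 and 0.00854). The call with shRNA1 was lost without any control array or any shRNA1 array (up to 0.128), and with the median of probe sets no call for TIGAR remained (0.729, 0.183 and 0.152). ENO3, the muscle enolase, changed by 0.12, 0.12 and 0.20 (called with shRNA3, limma adjusted p = 0.00297), and SLC2A4, the insulin-regulated glucose transporter, by 0.03, 0.07 and 0.12 (with shRNA3, 0.0161), a call lost without control 1, control 3 or shRNA3 replicate 1 (up to 0.0684). LDHC, the testis lactate dehydrogenase, changed by -0.16 with shRNA2 (0.0439), a call kept in 2 of 12 fits that leave out 1 array, those without control 3 or shRNA2 replicate 1 (up to 0.182 in the others). Other settings ended the calls of ENO3 (2 of 11, up to 0.289), SLC2A4 (4 of 11, up to 0.814) and LDHC (5 of 11, up to 0.559).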

How the data were processed

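RNA of 12 samples, 3 in each of 4 groups, was measured on Affymetrix arrays with probe sets for exons and exon-exon junctions. Deposited values are log2 signals, judged by their range, that RMA in Affymetrix Expression Console produced, per the submitters' processing notes. Program versions and the array's genome build were not stated there. The deposited rows numbered 914585, of which 1530 controls were left out, and 0 columns went unused. Genes were named through probe sets with 1 symbol in the platform annotation. Promoters came from RefSeq (GRCh38.p14).

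Kept probe sets had a mean, taken across the 12 arrays, above the 40th percentile (log2 6.53). A gene's value was the mean of at least 3 kept probe sets, and a splicing index needed at least 4. The 4 groups were fitted together in limma 3.58.1 (two-sided, 8 residual degrees of freedom, R 4.3.3, data.table, version 1.17.8) and summarised in Python 3.11.15 with pandas 2.3.3 and numpy 2.4.6. P-values were adjusted by the Benjamini-Hochberg method across every feature tested, and errors are standard errors of the fit. The steps were tested on simulated data for shRNA1 minus control over 16648 genes, where 90% of rises of 0.3 (log2) were recovered. No smaller change was planted, and the members' median changes (0.12, 0.12 and 0.16) lie below that. The noise was drawn for each gene apart, so the test does not cover genes that move together between arrays. The number of arrays limits the precision, and RMA brings arrays to a common distribution, so changes are relative.

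Same-numbered control and shRNA2 arrays deviated together over genes (r of 0.202, 0.432 and 0.264), unlike all 3 of any other pair of groups. Arrays with different numbers did so as strongly, as shRNA2 replicate 3 and shRNA3 replicate 2 (0.434) or control 2 and shRNA3 replicate 1 (0.376). No pairing can therefore be read from these values, and the labels do not say what a number shares. Block values are given, as another setting, where they change a call. The members and lists were chosen with earlier results of these data known. The naming rule took all 39 members, with every array's value for those called with all 3 hairpins, lower with any or between hairpins, up to 4 genes of each further list by mean change, all HIF pathway components and 12 probe sets by splicing index.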

Additional observations from a re-analysis of the deposited data

Results flagged for a closer look

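Hairpins differed from each other, by the fit's own test of the difference, in 5 of the genes named above and in RBFOX2. PFKL differed by 0.13 for shRNA3 minus shRNA1 (log2; limma adjusted p = 0.0457), a call lost under 4 of 11 other settings (up to 0.136), and TPI1 by 0.13 for shRNA3 minus shRNA2 (0.0350), a call lost under 6 of 11 (up to 0.184). EPAS1 differed by 0.22 for shRNA2 minus shRNA1 (0.0180), a call lost without shRNA1 replicates 1 or 2 or shRNA2 replicates 2 or 3 (up to 0.101), and with no filter, the median of probe sets or only the 2 groups compared (up to 0.178). For shRNA3 minus shRNA1 it differed by 0.26 (0.00302), a call kept in all 12 fits that leave out 1 array and lost with the median of probe sets (0.0588). ARNT2 differed by -0.22 for shRNA2 minus shRNA1 (0.0215), a call lost without any shRNA1 array or shRNA2 replicates 1 or 3 (up to 0.109), and with no filter, the median of probe sets or junctions alone (up to 0.0972). CREBBP differed by -0.17 for shRNA3 minus shRNA1 (0.0336), a call lost without any shRNA1 or shRNA3 array (up to 0.107), and with the median of probe sets, quantile normalization or junctions alone (up to 0.141). RBFOX2 differed by 0.58 for shRNA2 minus shRNA1 (6.94e-07), by 0.29 for shRNA3 minus shRNA1 (0.000182) and by -0.28 for shRNA3 minus shRNA2 (0.000217). Groups of 3 are too small for a test of single outlying arrays.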

How the results depend on the processing

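Members called higher with shRNA2 numbered 10 with the median of probe sets and 9 with only the 2 groups compared. Members lower with shRNA2 were 0 with no filter, with junctions only and with only the 2 groups, and 2 with the 60th percentile, exons only and an intensity trend. With shRNA3 1 was lower with exons only and with only the 2 groups, and for the mean of hairpins 1 with the median, exons only and the trend. For shRNA2 minus shRNA1 1 member was called with exons only and with quantile normalization. For shRNA3 minus shRNA1 there were 0 with no filter, the median and junctions only, and 4 with only the 2 groups. For shRNA3 minus shRNA2 there were 0 with no filter, the median, exons only, junctions only and only the 2 groups, and 2 with quantile normalization. By splicing index 4 were called with shRNA1, 0 with shRNA2 and 2 with shRNA3 with no filter, 15 with shRNA2 with the trend, 4 with shRNA3 above the 60th percentile, and 0 with shRNA2 and 2 with shRNA3 with only the 2 groups. TCEB2 with shRNA3 reversed to 0.055 (log2) with the median and was not called there.

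Leaving out 1 array, the higher members ranged from 9 to 19 with shRNA1, 7 to 20 with shRNA2, 18 to 27 with shRNA3 and 17 to 23 for the mean, and from 6 to 18 with all 3. With shRNA1 the lowest came without control 1 or shRNA1 replicate 2, and with shRNA2 without control 1. Lower members ranged from 0 to 1 with shRNA2, with shRNA3 and for the mean, and were 0 with shRNA1 and with all 3. Between hairpins the range was 0 to 1 for shRNA2 minus shRNA1, 0 to 2 for shRNA3 minus shRNA1 and 0 to 10 for shRNA3 minus shRNA2. Splicing index calls ranged from 3 to 15, 0 to 14 and 2 to 11.

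Under a block for replicate number, members higher were 18, 19 and 26, and 17 with all 3. With shRNA2 and control alone in a fit blocked by replicate number, 19 were higher, 1 lower and 0 called by splicing index. That fit and the junctions-only fit were chosen after seeing the data. Over the named gene values 4123 alternative values kept their side of the threshold and direction, 349 lost a call and 69 gained one. The 3 arrays a group limit what small changes can be called, and signal near background limits dim probe sets.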
